A study of Mus musculus with 10 samples.

Results

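The 10 genes described here encode proteins of macrophages and of Kupffer cells, the resident macrophages of the liver. They are Marco, Cybb, Clec4d, Clec4f, Cd5l, C1qa, C1qb, C1qc, Adgre1 and Csf1r, taken by name out of 18055 gene IDs in the tables of a study of primary mouse hepatocytes. They were picked with their response to palmitate known, so their values in palmitate against Vehicle are given as a description, with no test. All 10 were listed in every library and passed the filter on low counts. The study asked how Neurotropin (NTP), an analgesic drug made from virus-inflamed rabbit skin from which proteins are removed, changes what free fatty acids (FFAs) do to hepatocytes. Hepatocytes of C57BL/6 mice were released by collagenase perfusion, plated with serum and kept without serum overnight in all groups. The groups were Vehicle, PA (200 μM palmitate for 24 h), LA (12 μM linoleate for 24 h), and PA+NTP and LA+NTP, in which NTP was given 1 h ahead of the same FFA at the same dose. NTP was used at 0.4 NU/mL, a dose that the labels do not give. Each group held 2 RNA sequencing libraries, and NTP without an FFA was not analysed here.

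Macrophages sense lipids, microbes and cell debris through surface receptors. MARCO is a scavenger receptor that binds bacteria and particles. CLEC4D is a C-type lectin of the Dectin-2 family, whose members signal through the Fc receptor γ chain (Fcer1g), the kinase SYK and the adaptor CARD9. Cybb encodes gp91phox, the membrane subunit of the phagocyte NADPH oxidase that makes superoxide. Adgre1 encodes F4/80, Csf1r encodes the receptor for the growth factors CSF1 and IL-34, and Clec4f encodes a lectin that marks Kupffer cells in mouse liver. C1qa, C1qb and C1qc encode the chains of C1q, which starts the classical complement pathway, and Cd5l encodes a scavenger protein that protects macrophages from apoptosis. C1q and CD5L are secreted, so these 4 genes encode macrophage products and not surface receptors.

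The sequence upstream of transcription is shown for 5 of the genes, because these are the genes with a matched promoter that were called between PA+NTP and LA+NTP, as described below: Marco, Cybb and Clec4d on the higher side, Cd5l and C1qc on the lower side. Adgre1 was also called in that comparison, and no promoter was matched for it. Each line holds the 250 bases before the RefSeq start on GRCm38.p6, 5′ to 3′ on the strand of the gene. Capitals mark GAGGAA or its reverse complement, the core letters bound by PU.1, the transcription factor that defines myeloid cells.
Marco, chr1:120505025-120505274, minus strand: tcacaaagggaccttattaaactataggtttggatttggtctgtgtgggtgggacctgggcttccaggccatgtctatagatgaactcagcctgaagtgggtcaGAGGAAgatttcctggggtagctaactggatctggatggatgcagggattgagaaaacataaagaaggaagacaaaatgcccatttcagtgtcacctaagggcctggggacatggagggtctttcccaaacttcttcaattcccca
Cybb, chrX:9469325-9469574, minus strand: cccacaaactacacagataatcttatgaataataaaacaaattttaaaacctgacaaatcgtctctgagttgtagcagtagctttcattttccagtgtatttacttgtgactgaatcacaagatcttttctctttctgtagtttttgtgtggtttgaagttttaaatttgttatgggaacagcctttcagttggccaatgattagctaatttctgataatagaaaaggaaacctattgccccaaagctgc
Clec4d, chr6:123261857-123262106, plus strand: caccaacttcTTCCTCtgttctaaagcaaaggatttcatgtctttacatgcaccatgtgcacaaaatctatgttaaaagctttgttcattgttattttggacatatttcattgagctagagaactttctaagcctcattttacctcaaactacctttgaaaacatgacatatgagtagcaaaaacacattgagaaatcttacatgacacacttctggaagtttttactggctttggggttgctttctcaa
Cd5l, chr3:87357631-87357880, plus strand: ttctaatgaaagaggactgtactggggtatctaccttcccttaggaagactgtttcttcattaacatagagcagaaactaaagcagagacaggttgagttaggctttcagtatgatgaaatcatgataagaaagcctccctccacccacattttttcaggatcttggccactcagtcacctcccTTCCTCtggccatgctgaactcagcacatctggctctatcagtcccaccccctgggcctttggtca
C1qc, chr4:136892915-136893164, minus strand: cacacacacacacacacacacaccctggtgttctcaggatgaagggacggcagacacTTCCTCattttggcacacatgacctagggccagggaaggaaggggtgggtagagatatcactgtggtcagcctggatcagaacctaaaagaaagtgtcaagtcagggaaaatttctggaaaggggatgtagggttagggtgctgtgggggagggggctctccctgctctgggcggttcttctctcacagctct
The Cybb window lies inside the span annotated for the gene, at a start downstream of its first one. The C1qc window also uses a start downstream of the first one, as the annotated span reaches base 136892936, inside the window. A promoter was matched for 7 of the 10 genes. The PU.1 letters were present in 5 of the 7, against 23.25% of 32851 promoters of the same length, with both strands searched. They began 146 bases before the start of Marco, 240 bases before Clec4d, 66 before Cd5l, 30 before C1qb and 193 before C1qc, and they were not in the windows of Cybb and Clec4f. The letters TGACTCA (AP-1, 4.46% of promoters) and TTGCGCAA (C/EBP, 0.16%) were in none of the 7 windows, so no motif overlapped another. The genes of both directions therefore held the PU.1 letters, and a match of letters does not show that a factor bound there.

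The libraries held 13142588 to 60046937 expected counts, RSEM's estimates of the reads of each gene, and the levels below are FPKM, fragments scaled to the length of the gene and the size of the library. Replicates differed by more than counting noise, with a chi-square of 3.72 to 16 per gene, and were kept as separate samples. Nothing says that they came from separate cultures, so p-values measure the spread between these libraries, which may be technical. The share of GC-rich genes differed between libraries: the rank correlation of a gene's deviation with its GC content was -0.577 to -0.488 in the PA and LA libraries and 0.35 to 0.579 in the other 6. GC content was 42.42% for Cybb and 42.16% for Clec4d, and 56.56% to 59.52% for the C1q genes, against a median of 50.6% over the genes with a value. Values with this trend removed are therefore given beside many of the results below.

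Hepatocyte markers were present in the cultures, the highest of them albumin (Alb) at 1929 to 2818 FPKM. The other hepatocyte markers listed had means over all libraries from 6.26 (Tat) to 707 FPKM (Serpina1c). Macrophage transcripts were present at low levels. Among defining Kupffer cell markers, Clec4f lay between 0.03 and 0.29 FPKM, Timd4 between 0.0 and 0.2 and Vsig4 between 0.0 and 0.3, close to 0 in every library. The highest mean of the 10 genes over all libraries was 2.43 FPKM for Cd5l and the lowest 0.131 for Clec4f. Broader myeloid markers ranged widely. The highest were the lysosomal protein Cd68 with a mean of 199.6 FPKM and the actin-bundling protein Lcp1 with 163.6, followed by Cd14 (31.6), Mpeg1 (20.1) and Lyz2 (12.5). Most of the others were low, such as Tyrobp (1.77), Spi1 (1.06), Ptprc (0.541) and Itgam (0.184). In such bulk samples, fewer cells of a type and less RNA per cell cannot be told apart.

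In Vehicle cells the genes stood, from the highest mean level to the lowest, in the order Cd5l (2.77 FPKM), C1qc (1.27), C1qa (0.85), Clec4d (0.805), Cybb (0.75), Marco (0.625), C1qb (0.545), Csf1r (0.47), Adgre1 (0.45) and Clec4f (0.185). Cd5l and C1qc stood clear of the genes below them in both Vehicle libraries. Among the genes below them, the libraries of C1qa and Clec4d overlapped, as did those of neighbours from Marco to Adgre1, while Cybb did not overlap either neighbour. With PA the order changed, and Cybb (4.01), Clec4d (3.78) and Marco (3.42) stood above Cd5l (1.24), with every other gene at 0.76 or less.

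**Figure D1:**
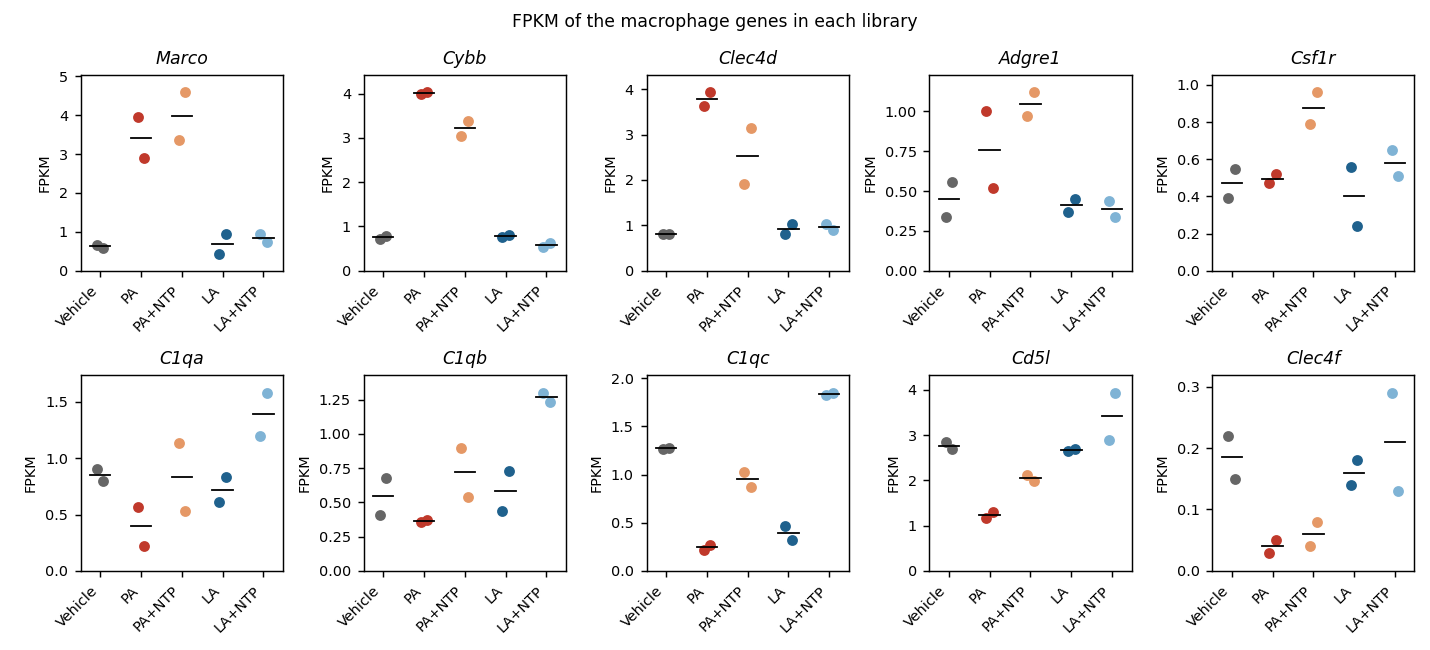
FPKM of each gene (vertical axis, linear from 0, scaled to each gene) in the 2 libraries of each group (points), with the group mean as a line. Marco, Cybb and Clec4d lay at 1.92 or more in all 4 libraries with palmitate and at 1.03 or less in the other 6, while C1qc lay at 0.47 or less in the PA and LA libraries and at 0.87 or more in the others.

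Marco was listed at 0.67 and 0.58 FPKM in Vehicle, 3.95 and 2.9 in PA, 3.36 and 4.59 in PA+NTP, 0.42 and 0.94 in LA, and 0.95 and 0.75 in LA+NTP. All 4 palmitate libraries were above all 6 others. The fitted difference of PA against Vehicle was a log2 fold change of 2.46 (SE 0.33), or 5.52-fold.

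Cybb was listed at 0.72 and 0.78 FPKM in Vehicle, 3.99 and 4.03 in PA, 3.05 and 3.39 in PA+NTP, 0.76 and 0.81 in LA, and 0.53 and 0.63 in LA+NTP. It had the smallest replicate spread of the genes that were high with palmitate. Its fitted log2 fold change in PA against Vehicle was 2.44 (SE 0.15), or 5.44-fold, and the levels in both NTP groups lay below those of the same FFA without NTP.

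Clec4d was listed at 0.8 and 0.81 FPKM in Vehicle, 3.62 and 3.93 in PA, 1.92 and 3.15 in PA+NTP, 0.8 and 1.02 in LA, and 1.03 and 0.89 in LA+NTP. Its PA libraries were the highest, its PA+NTP libraries came next and differed from each other, and the other 6 libraries overlapped. PA against Vehicle gave a log2 fold change of 2.26 (SE 0.30), or 4.78-fold.

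Adgre1 and Csf1r, which mark macrophages in general, did not separate PA from Vehicle. Adgre1 was listed at 0.34 and 0.56 FPKM in Vehicle, 1.0 and 0.52 in PA, 0.97 and 1.12 in PA+NTP, 0.37 and 0.45 in LA, and 0.44 and 0.34 in LA+NTP. One PA library of Adgre1 lay among the Vehicle libraries and the other among the PA+NTP libraries (log2 fold change of PA against Vehicle 0.67, SE 0.36). Csf1r was listed at 0.39 and 0.55 in Vehicle, 0.47 and 0.52 in PA, 0.79 and 0.96 in PA+NTP, 0.56 and 0.24 in LA, and 0.65 and 0.51 in LA+NTP. Its PA libraries lay between the Vehicle libraries (log2 fold change 0.10, SE 0.36), and its PA+NTP libraries were the highest. Csf1r shares exon sequence with Hmgxb3 on the other strand, and reads of the pair may not be separable.

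The C1q genes form a cluster of 18719 bases on chromosome 4. C1qc, the chain with the widest range, was listed at 1.27 and 1.28 FPKM in Vehicle, 0.22 and 0.27 in PA, 1.03 and 0.87 in PA+NTP, 0.47 and 0.32 in LA, and 1.83 and 1.85 in LA+NTP. Both FFAs without NTP were below Vehicle, and both NTP groups were above the same FFA alone, with no overlap. The expected counts of C1qc are small, 61 over the Vehicle libraries and 14 over the PA libraries, and the counting ratio of PA to Vehicle was 0.201 with an exact 95% interval of 0.104 to 0.363, which covers counting error only. C1qa was listed at 0.9 and 0.8 in Vehicle, 0.57 and 0.22 in PA, 1.13 and 0.53 in PA+NTP, 0.61 and 0.83 in LA, and 1.2 and 1.58 in LA+NTP. C1qb was listed at 0.41 and 0.68 in Vehicle, 0.36 and 0.37 in PA, 0.9 and 0.54 in PA+NTP, 0.44 and 0.73 in LA, and 1.3 and 1.23 in LA+NTP. All 3 chains were highest in LA+NTP and below both Vehicle libraries in both PA libraries, with log2 fold changes of PA against Vehicle of -2.28 (SE 0.41) for C1qc, -1.33 (SE 0.56) for C1qa and -0.57 (SE 0.51) for C1qb. With the GC trend removed, the same differences were -1.99, -0.89 and -0.24.

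Cd5l was listed at 2.84 and 2.7 FPKM in Vehicle, 1.16 and 1.31 in PA, 2.11 and 1.98 in PA+NTP, 2.66 and 2.69 in LA, and 2.89 and 3.94 in LA+NTP. The PA libraries were the lowest and the PA+NTP libraries stood between PA and all others. PA against Vehicle gave a log2 fold change of -1.11 (SE 0.20), or 2.16-fold lower. Clec4f was listed at 0.22 and 0.15 in Vehicle, 0.03 and 0.05 in PA, 0.04 and 0.08 in PA+NTP, 0.14 and 0.18 in LA, and 0.29 and 0.13 in LA+NTP. The palmitate libraries were the lowest, on very few reads: 20 counts over the Vehicle libraries and 6 over the PA libraries, a ratio of 0.263 (exact 95% interval 0.0863 to 0.678).

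Of the 10 genes, the values of 3 were higher (Marco, Cybb and Clec4d) and of 5 lower (Clec4f, Cd5l and the C1q genes) in both PA libraries than in both Vehicle libraries. Over all 14097 genes tested, 33.4% were separated in this way upward and 38.9% downward, and the genes were picked on this contrast, so nothing is read from the counts.

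**Figure D2:**
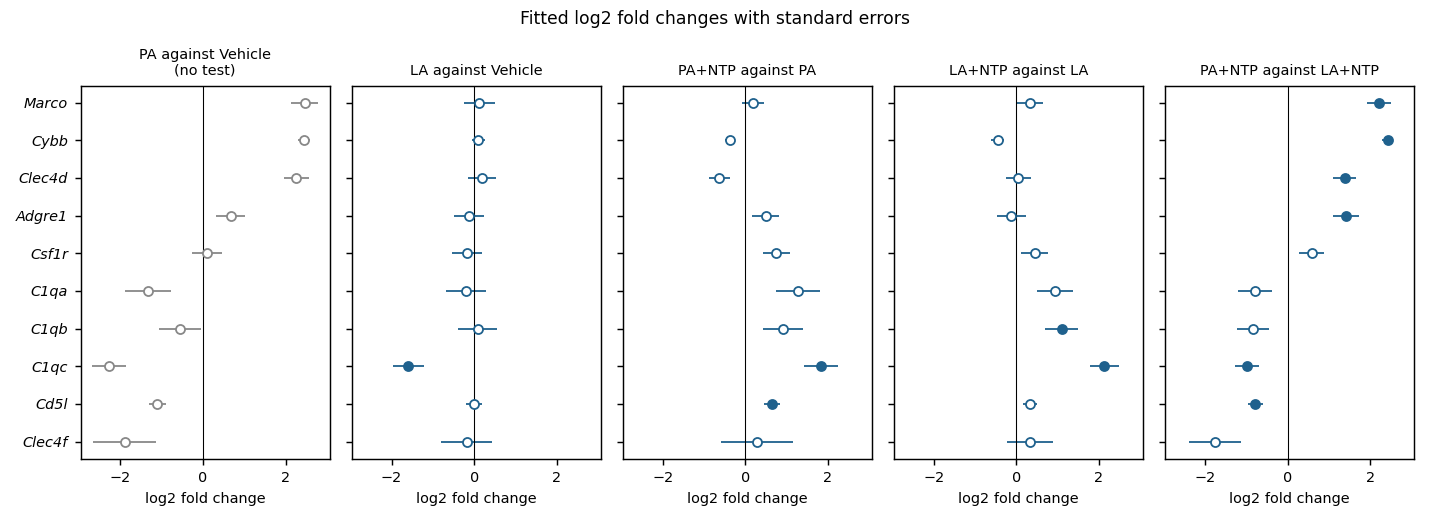
Log2 fold change (horizontal axis) with its standard error (bars) for each gene in 5 comparisons. Filled points passed an adjusted p of 0.05 and a fold of 1.5, and no test is shown for PA against Vehicle, where Marco, Cybb and Clec4d lie at 2.26 to 2.46 and C1qc at -2.28.

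LA, the polyunsaturated FFA, left 9 of the 10 genes without a call against Vehicle. Calls here and below needed an adjusted p under 0.05 over all genes tested (edgeR's quasi-likelihood test with Benjamini-Hochberg adjustment) and a fold change of at least 1.5. C1qc fell by 1.60 on the log2 scale (SE 0.37, adjusted p = 0.0033 in edgeR), or 3.03-fold, and by 1.28 (adjusted p = 0.027) with the GC trend removed. This 1 call in 10 genes stood beside 10.6% of all genes tested. Marco differed by 0.12 (SE 0.38), Cybb by 0.10 (SE 0.16) and Clec4d by 0.20 (SE 0.34), and by 0.40, -0.23 and -0.14 with the GC trend removed. Cd5l differed by 0.00 (SE 0.18). This contrast shares the Vehicle libraries with the one that sorted the genes.

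The direct comparison of the FFAs, at 200 μM palmitate and 12 μM linoleate, called 4 of the 10 genes, against 3.23% of all genes. Marco (log2 fold change 2.34, SE 0.32, adjusted p = 0.00037 in edgeR), Cybb (2.34, SE 0.14, adjusted p = 3.9e-07 in edgeR) and Clec4d (2.06, SE 0.29, adjusted p = 0.00045 in edgeR) were higher with PA. Cd5l was lower (-1.11, SE 0.20, adjusted p = 0.0028 in edgeR). The C1q genes did not pass, with C1qc at -0.68 (SE 0.47). The PA libraries here are those that sorted the genes, and the doses of the FFAs differ.

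The genes were chosen with earlier results of these data known, and PA+NTP against LA+NTP was added after the values were seen. Its counts are therefore a description, although it shares no library with the contrast that sorted the genes. It called 6 of the 10 genes, against 3.82% of all genes tested. Higher in PA+NTP were Cybb (log2 fold change 2.43, SE 0.14, adjusted p = 2.6e-07 in edgeR), Marco (2.22, SE 0.29, adjusted p = 0.00017), Adgre1 (1.41, SE 0.32, adjusted p = 0.0087) and Clec4d (1.38, SE 0.27, adjusted p = 0.0037), against 1.38% of all genes called higher. Lower were Cd5l (-0.78, SE 0.18, adjusted p = 0.0084) and C1qc (-0.99, SE 0.30, adjusted p = 0.04), against 2.45% called lower. The libraries of all 10 genes were separated, 5 upward and 5 downward, against 32.5% and 23.4% of all genes. Calls of Marco and Cybb stood in every alternative, whereas the count fell to 3 without the second LA+NTP library, where Adgre1 (adjusted p = 0.094 in edgeR), Cd5l (0.15) and C1qc (0.19) no longer passed. Clec4d did not pass without the second PA+NTP library (0.95, adjusted p = 0.054 in edgeR), and Cd5l did not pass with only these groups in the fit (adjusted p = 0.055). C1qc also did not pass with DESeq2 (adjusted p = 0.13), with the GC trend removed (adjusted p = 0.059 in edgeR), with only these groups in the fit (0.066), without either Vehicle library (0.061 and 0.062), without either PA+NTP library (0.09 and 0.17) and without the first LA+NTP library (0.18). With limma on log2(FPKM + 1), Adgre1, Cd5l and C1qc stayed under the fold threshold.

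NTP before palmitate was followed by higher levels of Cd5l and C1qc. Against PA, Cd5l rose by 0.65 on the log2 scale (SE 0.20, adjusted p = 0.017 in edgeR), or 1.57-fold, and C1qc by 1.83 (SE 0.42, adjusted p = 0.0025), or 3.54-fold, so 2 of the 10 genes were called beside 13.9% of all genes. C1qc was at 1.51 (adjusted p = 0.015 in edgeR) with the GC trend removed. Cd5l was at 0.58 with that trend removed, under the fold threshold, and its adjusted p rose to 0.07 without the first PA library, 0.066 without the second and 0.055 without the first PA+NTP library. The genes that were high with palmitate gave differing values: Marco 0.19 (SE 0.27), Cybb -0.37 (SE 0.12, adjusted p = 0.024 in edgeR, under the fold threshold) and Clec4d -0.64 (SE 0.26, adjusted p = 0.058). With the GC trend removed, Marco was at -0.10, Cybb at -0.064 and Clec4d at -0.32. Without the second PA+NTP library, Clec4d passed at -1.07 (adjusted p = 0.0091 in edgeR). C1qa (1.27, SE 0.54), C1qb (0.91, SE 0.48), Csf1r (0.75, SE 0.33) and Adgre1 (0.49, SE 0.32) did not pass, and with the GC trend removed they were at 0.80, 0.55, 0.55 and 0.58. The PA libraries are shared with the contrast that sorted the genes.

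With NTP before linoleate, C1qc was higher by 2.13 on the log2 scale (SE 0.34, adjusted p = 0.00013 in edgeR), or 4.38-fold, and by 1.72 (adjusted p = 0.0021) with the GC trend removed. The LA and LA+NTP libraries are not in the contrast that sorted the genes. The genes were nevertheless chosen with earlier results of these data known. C1qb rose by 1.09 (SE 0.40, adjusted p = 0.034 in edgeR), but its adjusted p was 0.098 with DESeq2, 0.27 with the GC trend removed, and 0.11 to 0.24 without either LA+NTP library or without the first LA library. These 2 calls in 10 genes stood beside 19.3% of all genes. C1qa was at 0.93 (SE 0.43) and Cd5l at 0.32 (SE 0.17), and neither passed; with the GC trend removed they were at 0.33 and 0.22. Cybb was at -0.46 (SE 0.15, adjusted p = 0.022 in edgeR), under the fold threshold, and at -0.064 with the GC trend removed. Marco (0.32, SE 0.34) and Clec4d (0.05, SE 0.30) did not pass, and were at -0.052 and 0.45 with the GC trend removed.

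The effect of NTP under PA was then set against that under LA by an interaction term. It called 0 of the 10 genes and 0.0% of all genes in edgeR, with none of the 10 at an unadjusted p under 0.05, while 1029 of all genes were under that value and DESeq2 called 5 genes. Clec4d had the lowest adjusted p of the 10 genes (0.75 in edgeR, difference -0.68, SE 0.40).

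The other genes of these pathways were taken from fixed lists of 88 genes beside the 10, of which 86 were listed in a library and 77 tested. All lists were chosen with earlier results of these data known, so their counts here and below are a description. In PA+NTP against LA+NTP, 1.38% of all genes tested were called higher and 2.45% lower. Among genes of inflammatory macrophages, 4 of the 8 tested were higher in PA+NTP than in LA+NTP, with a median log2 fold change of 1.17 against 0.01 over all genes. The chemokine gene Ccl2 was at 477.9 and 472.3 FPKM in PA+NTP and 163 and 170.2 in LA+NTP (1.48, SE 0.06, adjusted p = 3.8e-09 in edgeR). The cytokine genes Il1b (2.76, SE 0.48, adjusted p = 0.002) and Tnf (1.97, SE 0.35, adjusted p = 0.0018) and the formyl peptide receptor Fpr1 (3.15, SE 0.47, adjusted p = 0.0005) were at low levels, up to 1.24, 1.77 and 1.16 FPKM in PA+NTP. DESeq2 called 3 of the 4 and gave no adjusted p for Fpr1. Msr1, a class A scavenger receptor like MARCO, was at 0.53 (SE 0.30) and did not pass. The same list held 6 genes higher in PA than in Vehicle, beside 6.0% of all genes. In PA+NTP against PA, edgeR and DESeq2 both called 0 of the 8 tested genes of this list. The share over all genes in edgeR was 13.9%, so nothing is read from the 0. In edgeR, 1 of the 8 had an unadjusted p under 0.05, beside 7211 of the 14097 genes tested.

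Among the Dectin-2 family and its signalling genes, 3 of the 10 tested were higher in PA+NTP than in LA+NTP, with a median of 0.51. The 3 were Clec4e, which encodes Mincle and lies in the same gene family as Clec4d, Clec4n, which encodes Dectin-2, and Syk. Clec4e was at 0.08 and 0.06 FPKM in Vehicle, 1.08 and 1.28 in PA, 0.99 and 0.81 in PA+NTP, 0.01 and 0.02 in LA, and 0.1 and 0.09 in LA+NTP, so that its PA and PA+NTP libraries stood above all others, as those of Clec4d did (PA+NTP against LA+NTP 3.19, SE 0.35, adjusted p = 4.7e-05 in edgeR). Clec4n was at 1.21 (SE 0.35, adjusted p = 0.033 in edgeR; 0.059 in DESeq2) and Syk at 0.95 (SE 0.24, adjusted p = 0.015). These 3 genes and Fpr1 were named after their values were seen. The shared adaptor Fcer1g (0.50, SE 0.20), the adaptors Bcl10 (0.03, SE 0.07) and Malt1 (0.29, SE 0.09) and the β-glucan receptor Clec7a (-0.26, SE 0.24) were not called.

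Of 6 NADPH oxidase genes beside Cybb, 0 were called in PA+NTP against LA+NTP by edgeR or DESeq2. The share over all genes in edgeR was 3.82%, so nothing is read from this count. In edgeR, 1 of the 6 had an unadjusted p under 0.05, beside 3965 of the 14097 genes tested. Cyba, the other membrane subunit, was at 0.36 (SE 0.21), and the GTPase Rac2 at 0.36 (SE 0.19). Nox4, a homologue of gp91phox, was at -0.50 (SE 0.07, adjusted p = 0.0005 in edgeR), under the fold threshold. The classical pathway downstream of C1q includes the protease C1s1 and the components C3 and C4b, which hepatocytes make. Of its 8 genes, edgeR and DESeq2 called 0 in PA+NTP against PA and 0 in LA+NTP against LA. In edgeR, 5 and 6 of them had an unadjusted p under 0.05, beside 7211 and 8001 of the 14097 genes tested. The shares of all genes called by edgeR in these comparisons were 13.9% and 19.3%. In PA+NTP against LA+NTP the 1 called was C4bp, an inhibitor of the pathway (-0.79, SE 0.16, adjusted p = 0.0039 in edgeR).

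**Figure D3:**
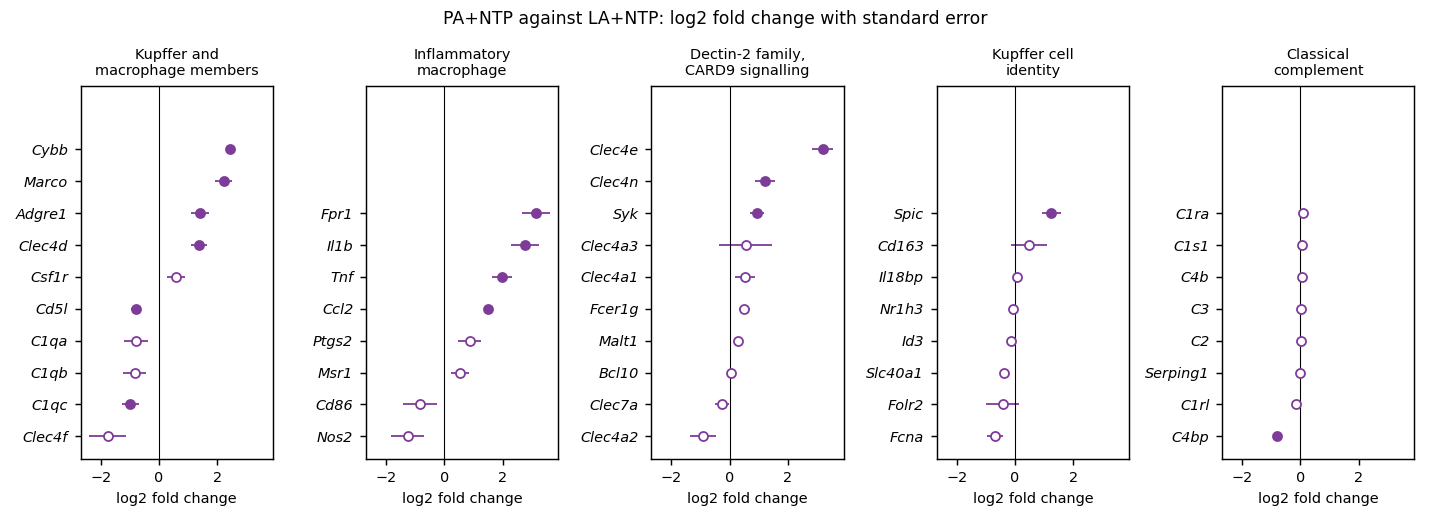
Log2 fold change of PA+NTP against LA+NTP (horizontal axis) with its standard error (bars) for the tested genes of 5 groups, with filled points for those called. Called points lie on both sides among the 10 genes (4 higher, 2 lower), and on the higher side in the inflammatory (4 of 8) and Dectin-2 (3 of 10) lists.

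Other lists covered the identity of macrophages. With 3.82% of all genes called in PA+NTP against LA+NTP, a count of 0 in a short list is near that share. Of 8 tested Kupffer cell identity genes, Spic, a transcription factor of iron-recycling macrophages, was higher in PA+NTP than in LA+NTP (1.24, SE 0.32, adjusted p = 0.017 in edgeR). Cd163, Folr2 and Fcna, markers that did not pass, were at 0.47 (SE 0.61), -0.43 (SE 0.58) and -0.70 (SE 0.28). Of 18 myeloid genes, 3 were higher, among them Lcp1 (0.61, SE 0.06, adjusted p = 1.4e-05 in edgeR) and the lipopolysaccharide co-receptor Cd14 (0.61, SE 0.09, adjusted p = 0.00069), and 1 was lower, the protease Ctss (-0.84, SE 0.18, adjusted p = 0.0071). DESeq2 called 3 genes of this list. Among 6 genes of the CSF1R axis, 0 were called by edgeR or DESeq2 and 1 had an unadjusted p under 0.05 in edgeR, with the ligands Csf1 at 0.09 (SE 0.06) and Il34 at 0.51 (SE 0.24). Of 9 scavenger receptors, which include Msr1, 0 were called by edgeR or DESeq2 and 2 had an unadjusted p under 0.05 in edgeR, with Cd36, the fatty acid transporter, at -0.08 (SE 0.06). Over all 14097 genes tested, 3965 had an unadjusted p under 0.05 in edgeR in PA+NTP against LA+NTP. Of 11 macrophage transcription factors, 1 was called, again Spic, and Spi1, which encodes PU.1, was at -0.33 (SE 0.32).

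The summed level of 12 Kupffer cell markers, 7 of which are among the 10 genes, was 8.13 to 9.21 FPKM in Vehicle, 4.88 to 5.89 in PA, 7.81 to 8.62 in PA+NTP, 7.01 to 7.18 in LA and 10.7 to 12.2 in LA+NTP. It was lowest in PA and highest in LA+NTP, as were the mean levels of Cd5l and the C1q genes. These genes are part of the sum, so the likeness is built in. Of the markers outside the 10 genes, Fcna, Folr2, Cd163 and Timd4 overlapped between the PA and Vehicle libraries. Vsig4, at 0.3 FPKM or less, was lower in PA. The sums of markers of other liver cells also differed between groups. The sum of 8 sinusoidal endothelial markers was 49.8 to 50.9 in Vehicle, 37.7 to 41.2 in PA, 38.2 to 43.7 in PA+NTP, 41.4 to 43.4 in LA and 51.1 to 52.4 in LA+NTP. The sum of 8 stellate cell and fibroblast markers lay between 20.1 and 24.5 in all libraries, of which Dcn made up 11.8 to 14.95. In edgeR, Col1a1, Lrat, Pdgfrb and Reln were called lower in PA than in Vehicle, and Des, Dcn, Lum and Col3a1 were not called. DESeq2 also called 4 of the 8 there, beside 1979 of the 14097 genes tested. In PA+NTP against PA, edgeR called 2 of the 8 higher (Col1a1 and Pdgfrb), beside 13.9% of all genes called either way. The sum of 5 cholangiocyte markers was 583 to 616 in Vehicle, 407 to 529 in PA, 569 to 704 in PA+NTP, 637 to 678 in LA and 664 to 692 in LA+NTP. Nearly all of this sum was Spp1, at 398.4 to 691.4 FPKM, while Krt19, Krt7 and Epcam each lay at 0.92 or less. The sum of 8 hepatocyte markers was 3886 to 4118 in Vehicle, 2556 to 2870 in PA, 3167 to 3597 in PA+NTP, 3816 to 3958 in LA and 4635 to 4982 in LA+NTP. Most of this sum was Alb, at 1929 to 2818 FPKM. Alb, Apoa1, Apoh, Serpina1c and Ttr were lower in both PA libraries than in both Vehicle libraries, beside 38.9% of all genes tested. Cyp2e1 was higher (20.04 and 20.74 in PA, 18.94 and 17.97 in Vehicle), and Asgr1 and Tat overlapped. Of 6 neutrophil markers, 5 were in no library, S100a8 and S100a9 among them. The other was the chemokine receptor gene Cxcr2, at 6.8 to 6.89 FPKM in Vehicle, 4.28 to 5.44 in PA, 8.12 to 8.54 in PA+NTP, 3.66 to 4.18 in LA and 6.06 to 7.38 in LA+NTP, so that it was lower in LA than in Vehicle (-0.76, SE 0.13, adjusted p = 0.00031 in edgeR) and higher with NTP before either FFA (0.75 in both, adjusted p = 0.00023 and 0.00016 in edgeR). The sum of 7 T and NK cell markers was at most 0.89 FPKM. The part of these markers in the differences of the 10 genes was not tested.

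**Figure D4:**
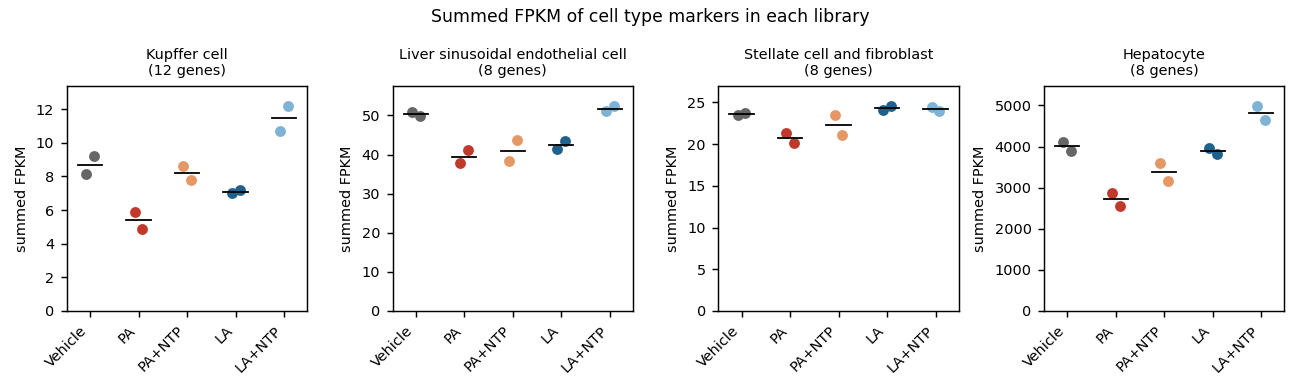
Summed FPKM of the markers of 4 cell types (vertical axis, linear from 0, scaled to each cell type) in the 2 libraries of each group (points), with the group mean as a line. The Kupffer cell sum runs from 4.88 in a PA library to 12.2 in an LA+NTP library. The hepatocyte sum, most of which was Alb, was likewise lowest in PA and highest in LA+NTP.

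The genes most like the 10 in pattern were sought for the 3 with a mean of at least 100 expected counts, by Pearson's r of log2 normalised counts (CPM) over the 10 libraries among 10773 genes. The libraries share groups, so r is a description. Marco was most like Lcp1 (r = 0.972), the splicing factor gene Sf3b3 (0.968) and the arginine methyltransferase gene Prmt7 (0.961). Cybb was most like the scavenger receptor and chemokine gene Cxcl16 (0.984), Wdr73 (0.984) and Pdia4 (0.979), a chaperone of the endoplasmic reticulum. Cd5l was most like Adap2 (0.971) and Ephx1 (0.966), which encodes microsomal epoxide hydrolase. The genes like Marco and Cybb spanned smaller folds: Cxcl16 had mean levels of 51.2 FPKM in Vehicle and 74.3 in PA, against 0.75 and 4.01 for Cybb.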

How the data were processed

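RNA was sequenced from 5 groups of 2 libraries, and groups and replicate numbers were taken from the labels, from which the numbers in the deposited files differ. The submitters' processing notes name HISAT, Bowtie2, RSEM and mm10, with versions not given in the sources used here. The authors deposited RSEM expected counts, with no normalization between libraries, and FPKM, which the authors scaled for gene length and library size. Genes not listed in a library were set to 0 there. Of 18055 gene IDs, 17998 were matched by ID and 11 by accession to RefSeq on GRCm38.p6. The 10 genes and all lists were chosen with earlier results of these data known.

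The counts, rounded to whole numbers, were fitted in edgeR 4.0.16 (R 4.3.3), with 5 groups over 10 libraries, TMM factors of 0.977 to 1.037, filterByExpr (14097 genes tested, 3958 dropped) and the quasi-likelihood test. Benjamini-Hochberg adjustment ran over all genes tested. With 2 libraries against 2, an exact permutation test cannot go below p = 0.333, and none was used. Totals of 13142588 to 60046937 expected counts set the precision. The scripts were tested on simulated counts.

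All 10 genes were named, and from each list the 4 non-members with the highest mean FPKM (8 for Kupffer cell and myeloid lists), whatever their change. Not all of these are printed, and some genes that the rule names are not reported here. Alternatives were DESeq2 1.42.0, library-size scaling, other filters, no fold threshold, limma 3.58.1 on log2(FPKM + 1) or log2(FPKM + 0.1), only the groups compared, the replicate block, a GC trend (loess, span 0.4) removed over the 95.1% of tested genes with a GC value, and leaving out each library.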

Additional observations from a re-analysis of the deposited data

How the results depend on the processing

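Of the 77 other list genes tested, those called were 21 in PA against Vehicle, 10 in LA against Vehicle, 13 in PA+NTP against PA, 11 in LA+NTP against LA and 13 each in PA against LA and PA+NTP against LA+NTP. In PA against Vehicle, edgeR called 6.0% of all genes higher, and DESeq2 called 1979 of the 14097 genes tested either way. From LA against Vehicle on, the shares of all genes called by edgeR were 10.6%, 13.9%, 19.3%, 3.23% and 3.82%. With 2 libraries a group and 10 to 263 expected counts per gene on average, calls of the low genes rested on little depth. DESeq2 called 1 member in LA+NTP against LA in place of 2. Without a filter on low counts, PA+NTP against PA had 5 members called in place of 2. With a filter at a mean FPKM of 1, 3 members had a positive fold change in PA against Vehicle in place of 5, 0 were called in LA against Vehicle, 1 in PA+NTP against PA and 0 in LA+NTP against LA, since fewer genes were tested, and of the other list genes 8 were called in PA against Vehicle, 7 in LA+NTP against LA, 7 in PA against LA and 5 in PA+NTP against LA+NTP. With limma on log2(FPKM + 1), 1 member was called in PA+NTP against PA, 1 in LA+NTP against LA and 3 in PA+NTP against LA+NTP, and of the other list genes 9 in PA against Vehicle, 3 in LA against Vehicle, 8 in PA+NTP against PA and 5 in LA+NTP against LA. With the GC trend removed, 1 member was called in PA+NTP against PA and 1 in LA+NTP against LA, and of the other list genes 3 in LA against Vehicle and 7 in LA+NTP against LA. With no fold threshold, list genes called were 37 in PA against Vehicle, 22 in LA against Vehicle, 29 in PA+NTP against PA, 27 in LA+NTP against LA and 21 in PA+NTP against LA+NTP. Beyond the filter, fold threshold and samples themselves, the cause was not tested.

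Leaving out 1 library gave 4 to 5 members with a positive fold change in PA against Vehicle, and called 1 in LA against Vehicle, 1 to 4 in PA+NTP against PA, 1 to 2 in LA+NTP against LA, 4 in PA against LA and 3 to 6 in PA+NTP against LA+NTP, and 13 to 22, 4 to 10, 11 to 14, 10 to 13, 7 to 14 and 7 to 14 list genes in the same order. Values not called changed sign for LA against Vehicle in Adgre1 (-0.40 to 0.30), C1qa (-0.42 to 0.026), C1qb (-0.27 to 0.53), Cd5l (-0.046 to 0.034), Clec4f (-0.45 to 0.070), Csf1r (-0.96 to 0.28) and Marco (-0.50 to 0.64), for LA+NTP against LA in Adgre1 (-0.32 to 0.070), Clec4d (-0.14 to 0.21), Clec4f (-0.29 to 0.83), Csf1r (-0.017 to 1.23) and Marco (-0.20 to 0.94), for PA+NTP against PA in Adgre1 (-0.0070 to 0.93), Clec4f (-0.29 to 0.81) and Marco (-0.085 to 0.42), and for PA against LA in Csf1r (-0.18 to 1.06). With the GC trend removed, signs changed in LA against Vehicle for Cybb (-0.23), Clec4d (-0.14), Cd5l (0.067), C1qa (0.27) and Csf1r (0.011), and for Marco in PA+NTP against PA (-0.10) and LA+NTP against LA (-0.052).

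Libraries with the same replicate number deviated together weakly (correlations of -0.0692 to 0.127), and the labels do not say that a number marks a shared culture. With the replicate number as a block, Clec4d in PA+NTP against PA passed (-0.64, adjusted p = 0.049 in edgeR), Cd5l in LA against Vehicle turned to 0.0023, uncalled, and no other call of the 10 genes changed.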
